A study of Homo sapiens with 6 samples.

Results

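Toll-like receptors are the family of membrane sensors that recognise microbial and damage-associated molecules, and the genes described here are 6 of these receptors with 4 proteins that escort them or carry their signal. The set holds the receptors TLR2, TLR3, TLR4, TLR5, TLR6 and TLR7, the chaperone UNC93B1, the adaptor MYD88 and the kinases IRAK2 and IRAK4. They were chosen by name from a table of 30949 genes, and all 10 had a row.

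Polyadenylated RNA was sequenced from wild-type astrocytes made from the human stem cell line WTC11, an established induced pluripotent line, and grown as floating aggregates inside alginate capsules in neural medium. For 48 hours, 3 cultures were given ITC, in which C1q of the complement system is combined with the cytokines TNF alpha and interleukin 1 alpha, and 3 were given vehicle. Batches of capsules were made separately and each was divided between the treatments. The labels do not say which library is from which batch, so the main test does not pair libraries. All cultures are of 1 parental line and carry no variation between donors. Total counts ranged from 17808993 to 19327421 in ITC libraries and from 17398921 to 29941685 in vehicle libraries, with vehicle replicate 3 the deepest.

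A Toll-like receptor binds its ligand with a horseshoe of leucine-rich repeats and signals through a cytoplasmic TIR domain. Most receptors recruit MYD88, which assembles IRAK4 and then IRAK2 or IRAK1 into a signaling platform that activates NF-kappa-B, whereas TLR3 signals through the adaptor TICAM1, also called TRIF. The receptor for interleukin 1 uses the same MYD88 and IRAK proteins. In the brain most Toll-like receptors are best known from microglia, and TLR3 is the member most often described in cultured human astrocytes.

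The labelled cell type was checked first. Of 10 astrocyte markers all were measured, and their summed level was 4392 to 6198 CPM (counts scaled by library size with TMM factors) in ITC libraries and 4296 to 6033 CPM in vehicle libraries. Among them 7 fell, 1 rose and 2 were not called at an adjusted p under 0.05 in edgeR's quasi-likelihood test. GFAP averaged 106 CPM in ITC and 121 CPM in vehicle, and AQP4 averaged 19.7 CPM in ITC and 166 CPM in vehicle. CLU, not called, averaged 3600 CPM in ITC and 3388 CPM in vehicle. SOX9, the marker that rose, averaged 1099 CPM in ITC and 611 CPM in vehicle. Most of the summed astrocyte level came from CLU and SOX9. Microglia and macrophage markers, of which 10 of 15 had a row, summed to 2.05 to 3.31 CPM in ITC libraries and 0.881 to 1.21 CPM in vehicle libraries. AIF1, SPI1 and C1QA had no count in the 3 ITC libraries and only 4, 4 and 2 counts over the vehicle group. Over the ITC group, CX3CR1, TMEM119, CD68 and MRC1 held 3, 3, 2 and 2 counts. Over the vehicle group these 4 genes held 15, 5, 3 and 8 counts. CD163, CSF1R and ITGAM held 16, 42 and 75 counts over the ITC group and 8, 16 and 11 over the vehicle group. ITGAM was the tested member of that list, and it rose by 3.26 on the log2 scale. Plasmacytoid dendritic cell markers, with 2 of 4 measured, summed to 1.61 to 2.06 CPM in ITC and 3.20 to 9.53 CPM in vehicle, nearly all of it IL3RA. CD79A, the only B or T cell marker of 6 with a row, was at 0.295 to 0.500 CPM in ITC and 0 to 0.650 CPM in vehicle. Summed endothelial markers reached 2.89 to 6.26 CPM in ITC and 1.47 to 1.72 CPM in vehicle, and mural and fibroblast markers 393 to 478 CPM in ITC and 330 to 372 CPM in vehicle. Single mural and fibroblast markers moved in both directions. On the log2 scale RGS5 (2.24) and DCN (2.64) rose and PDGFRB (-3.58) and LUM (-2.19) fell, while ACTA2 and COL1A1 were not called. Neuronal markers summed to 241 to 319 CPM in ITC and 690 to 860 CPM in vehicle, and oligodendrocyte lineage markers to 69.2 to 77.2 CPM in ITC and 289 to 354 CPM in vehicle. In bulk RNA, fewer cells of a type and less RNA per cell cannot be told apart. The part of these other cell types in the results below was not tested beyond the values given.

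Sequence around the starts of 4 members that rose in ITC is shown, since transcription of a gene is controlled in part from there. Promoters of 8 of the 10 genes were found in the RefSeq table (GRCh38.p14), and the 250 bases before each RefSeq start were searched on both strands for 5 motifs. TLR7 and UNC93B1 had no promoter there and were not searched. Capitals mark matches. In the short stretch of TLR2 (chr4:153684234-153684263, plus strand, 46 to 17 bases before the RefSeq start) they mark the kappa-B-like run GGACTTTCC, and in that of MYD88 (chr3:38138587-38138616, plus strand, 74 to 45 bases before the start) they mark TTCNNNGAA, the interferon-gamma activated motif, overlapping the core of the interferon response element, GAAA and GAAA with 2 bases between them. Both of these stretches lie inside the gene as the authors' table gives it, where TLR2 begins at 153684070 and MYD88 at 38138478. The IRAK2 stretch (chr3:10164669-10164864, plus strand) and the TLR6 stretch (chr4:38856818-38857067, minus strand) end where the gene begins in the authors' table and hold no match. TLR1, which was not called, begins at the same base and strand as TLR6 in that table, so the TLR6 stretch lies before both genes.
TLR2: cccggccgcgcGGACTTTCCcttttgctta
MYD88: gcggcgcTTCTCGGAAAGCGAAAgccggcg
IRAK2: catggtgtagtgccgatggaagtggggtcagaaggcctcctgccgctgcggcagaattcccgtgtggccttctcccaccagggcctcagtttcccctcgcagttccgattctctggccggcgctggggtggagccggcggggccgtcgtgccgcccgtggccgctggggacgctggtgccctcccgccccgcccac
TLR6: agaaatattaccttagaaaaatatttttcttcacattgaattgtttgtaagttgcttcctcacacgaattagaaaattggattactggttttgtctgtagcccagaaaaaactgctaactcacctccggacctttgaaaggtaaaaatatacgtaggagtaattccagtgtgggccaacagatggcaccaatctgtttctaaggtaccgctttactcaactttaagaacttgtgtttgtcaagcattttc

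The IRAK2 stretch is GC-rich, at 71.4% G and C, whereas the TLR6 stretch is AT-rich, at 36.4%, so these 2 members differ in base composition before their starts. GGACTTTCC occurred in 1 of the 8 promoters and in 0.333% of the 35116 promoters of the table, and it was added to the search after the TLR2 sequence was seen. The interferon response core occurred in 1 of 8 and in 3.02% of all promoters, and TTCNNNGAA in 2 of 8, those of MYD88 and TLR3, and in 6.57% of all. The longer kappa-B consensus was in 0 of 8 and in 9.96% of all promoters, and the AP-1 motif TGANTCA was in 0 of 8 and in 6.57% of all. A match of letters is a description of these windows and shows no binding.

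In ITC libraries 6 of the 10 genes rose, 0 fell, 3 were not called and TLR3 was too low to be tested. TLR7, the endosomal receptor for single-stranded RNA, and TLR2, the cell surface receptor for bacterial lipoproteins, had the largest rises, followed by the kinase IRAK2. TLR5, TLR6 and MYD88 rose by 2.53-fold to 3.53-fold. TLR4, the receptor for lipopolysaccharide, UNC93B1 and IRAK4 were not called. Over the whole table, edgeR called 39.4% of 16756 tested genes in either direction, 20.4% higher and 19.0% lower in ITC, so a call by itself is common here and the size of the change says more. The 9 tested members had a median log2 change of 1.37, also with TLR7 taken at its bound, against -0.01 over all tested genes. TLR2, TLR5 and TLR7 passed the filter on low counts through their ITC libraries, so this median and the overlap count that follows are descriptions. The groups did not overlap in 6 of the 9 tested members, all higher in ITC, against 50.1% of all tested genes, 26.1% higher and 24.0% lower.

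**Figure D1:**
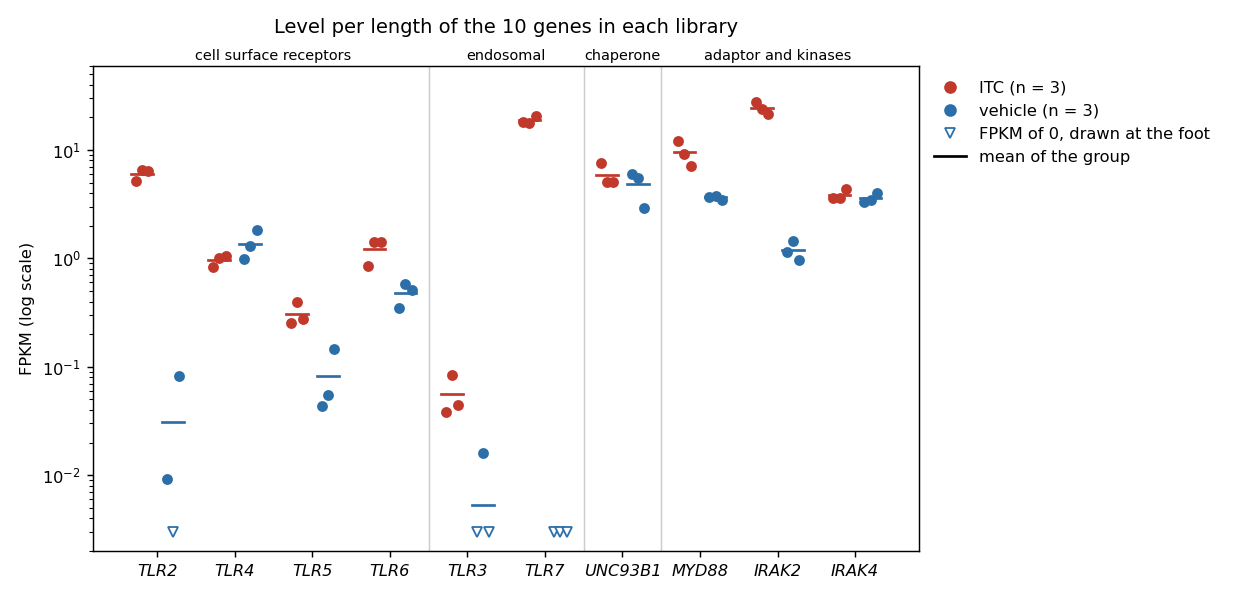
Level per length (FPKM, log scale) of the 10 genes in each of 3 ITC libraries (red, left) and 3 vehicle libraries (blue, right), with a bar at each group mean and open triangles at the foot for an FPKM of 0. TLR7 lies between 17.7 and 20.5 FPKM in ITC and at 0 in every vehicle library, while the 2 groups overlap for TLR4, UNC93B1 and IRAK4.

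Among the receptors of the endosome, TLR7 (chromosome X, 12867083 to 12890380 on GRCh38) had 1488, 1620 and 1784 counts in ITC replicates 1, 2 and 3 and no count in any vehicle library. The 3 ITC libraries lay close together, at 90.3, 90.0 and 105 CPM, and the deepest library of the study, vehicle replicate 3, held none. Against a floor of 3 counts over the vehicle group, TLR7 was at least 2313-fold higher in ITC, or at least 11.18 on the log2 scale (edgeR adjusted p = 6.96e-11). The floor covers counting error only. Per length, TLR7 averaged 18.8 ± 1.47 FPKM in ITC (SD, n = 3), where the myeloid markers ITGAM and CSF1R averaged 0.265 and 0.166 FPKM. The plasmacytoid dendritic cell marker GZMB had no count in ITC, where IL3RA held 94 counts.

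TLR3 (chromosome 4, 186069152 to 186088069), the receptor for double-stranded RNA, was the lowest member in ITC. It had 4, 10 and 5 counts in ITC replicates 1, 2 and 3 and 0, 2 and 0 counts in vehicle replicates 1, 2 and 3. These counts do not overlap, but 2 of the vehicle libraries held none and the gene did not pass the filter on low counts. The ratio of ITC over vehicle was 13.5, with a 95% exact counting interval of 3.25 to 119. With no filter edgeR gave an adjusted p of 0.0786, and the authors' deposited table lists -3.58 for the log2 of vehicle over ITC with an adjusted p of 0.0747. Within ITC libraries the level of TLR7 per length was 209 to 480 times that of TLR3.

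UNC93B1 (chromosome 11, 67991104 to 68004982), which escorts the nucleic acid receptors and TLR5 out of the endoplasmic reticulum, had 25.7, 17.5 and 17.8 CPM in ITC replicates 1, 2 and 3 and 20.5, 19.0 and 10.4 CPM in vehicle replicates 1, 2 and 3. The groups overlapped, with the highest value in ITC replicate 1 and the lowest in vehicle replicate 3. The log2 change was 0.30 ± 0.24 (SE; edgeR adjusted p = 0.355), with a 95% interval of -0.18 to 0.77, and it was -0.0047 without vehicle replicate 3. Of the 100-base windows in its annotated transcripts, 2.3% also occur in transcripts of the UNC93B pseudogene copies. Reads from those windows may have been lost or counted for either gene, which was not tested. Per length, TLR7 stood at 2.40 to 4.02 times UNC93B1 in ITC libraries and at 0 in vehicle libraries.

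The receptors of the cell surface changed unequally, with a rise in 3 of 4 and no call for TLR4. TLR2 (chromosome 4, 153684070 to 153705702) had 426, 592 and 558 counts in ITC replicates 1, 2 and 3 and 1, 0 and 14 counts in vehicle replicates 1, 2 and 3. Every ITC library was far above every vehicle library, and 14 of the 15 vehicle counts came from replicate 3. It averaged 30.6 ± 4.07 CPM in ITC and 0.160 ± 0.238 CPM in vehicle (SD, n = 3 each) and rose by 7.22 ± 0.44 on the log2 scale, or 149-fold (edgeR adjusted p = 9.54e-09). Without vehicle replicate 3 edgeR gave a rise of 9.89 ± 0.44, or 946-fold. That fit rests on the 1 and 0 counts of vehicle replicates 1 and 2, so neither its size nor its SE is well measured. The microglia and macrophage markers together had 19, 23 and 34 counts in vehicle replicates 1, 2 and 3, or 0.88, 1.21 and 1.05 CPM. The genes of the list did not share 1 order over these libraries. In vehicle replicates 1, 2 and 3, AIF1 and SPI1 each had 0, 0 and 4 counts. MRC1 had 0, 0 and 8 counts, ITGAM 0, 4 and 7, and CSF1R 4, 4 and 8. CX3CR1 had 9, 4 and 2 counts, and CD163 had 6, 1 and 1. TMEM119 had 0, 5 and 0 counts, CD68 0, 3 and 0, and C1QA 0, 2 and 0. The source of the TLR2 counts in vehicle replicate 3 was not tested.

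TLR6 (chromosome 4, 38823715 to 38856817), which pairs with TLR2 to bind diacylated lipopeptides, had 4.86, 8.27 and 8.50 CPM in ITC replicates 1, 2 and 3 and 1.99, 3.46 and 3.10 CPM in vehicle replicates 1, 2 and 3. The lowest library of each group was replicate 1, and the groups did not overlap. TLR6 rose by 1.34 ± 0.29, or 2.53-fold (edgeR adjusted p = 0.00217). TLR1, the other partner of TLR2 whose annotated span contains that of TLR6 on the same strand, averaged 2.37 ± 0.866 CPM in ITC and 1.84 ± 0.816 CPM in vehicle and was not called (0.35 ± 0.42, edgeR adjusted p = 0.542). The difference between the changes of TLR6 and TLR1 was not tested. TLR6 shares 57 exon bases and 1.96% of its 100-base windows with TLR1, and reads from those bases may have been counted for either gene. TLR2 stood at 4.48 to 6.16 times TLR6 per length in ITC libraries and at no more than 0.162 times TLR6 in vehicle libraries.

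TLR5 (chromosome 1, 223109406 to 223143282), the receptor for flagellin, stayed low in both groups, with 31, 54 and 36 counts in ITC replicates 1, 2 and 3 and 7, 8 and 37 counts in vehicle replicates 1, 2 and 3. On the CPM scale, 1.88, 3.0 and 2.12 in ITC lay above 0.325, 0.419 and 1.15 in vehicle. TLR5 rose by 1.82 ± 0.49, or 3.53-fold (edgeR adjusted p = 0.00853). Vehicle replicate 3 again had most of the vehicle counts, and without it the rise was 2.59 ± 0.53, or 6.02-fold (edgeR adjusted p = 0.00047).

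TLR4 (chromosome 9, 117704175 to 117724730) was the most abundant receptor of the vehicle libraries. It had 10.4, 12.9 and 13.9 CPM in ITC replicates 1, 2 and 3 and 12.5, 16.8 and 24.1 CPM in vehicle replicates 1, 2 and 3. The groups overlapped, and vehicle replicate 3 was the highest library. The log2 change was -0.52 ± 0.23, with an unadjusted p of 0.0384 and an edgeR adjusted p of 0.0851. It was called lower in ITC under 5 of 14 alternatives, with upper quartile scaling (-0.67), with library size only (-0.75), with no filter on low counts (-0.53), with a replicate block (-0.48) and without vehicle replicate 1 (-0.73, adjusted p = 0.0106). Of its exon bases 4.2% overlap a second annotated gene on the same strand, AL160272.2.

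Set side by side per length, the 6 receptors summed to 27.4 ± 2.19 FPKM in ITC and 1.96 ± 0.589 FPKM in vehicle (SD, n = 3 each). TLR7 took 68.7% ± 3.16 of that sum in ITC and 0% in vehicle, and TLR2 took 22.0% ± 1.73 in ITC and 1.31% ± 1.71 in vehicle. TLR4 took 3.51% ± 0.228 in ITC and 69.5% ± 2.72 in vehicle, and TLR6 took 4.44% ± 0.984 in ITC and 25% ± 4.99 in vehicle. The make-up was alike in the libraries of a group and exchanged its leading receptors between groups. These shares are a description and were not tested, and they leave out TLR1, which is not a member. TLR1 averaged 0.536 ± 0.191 FPKM in ITC and 0.414 ± 0.18 FPKM in vehicle, where TLR6 averaged 0.481 ± 0.124 FPKM. A share can be lower where a level is higher, as for TLR6.

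**Figure D2:**
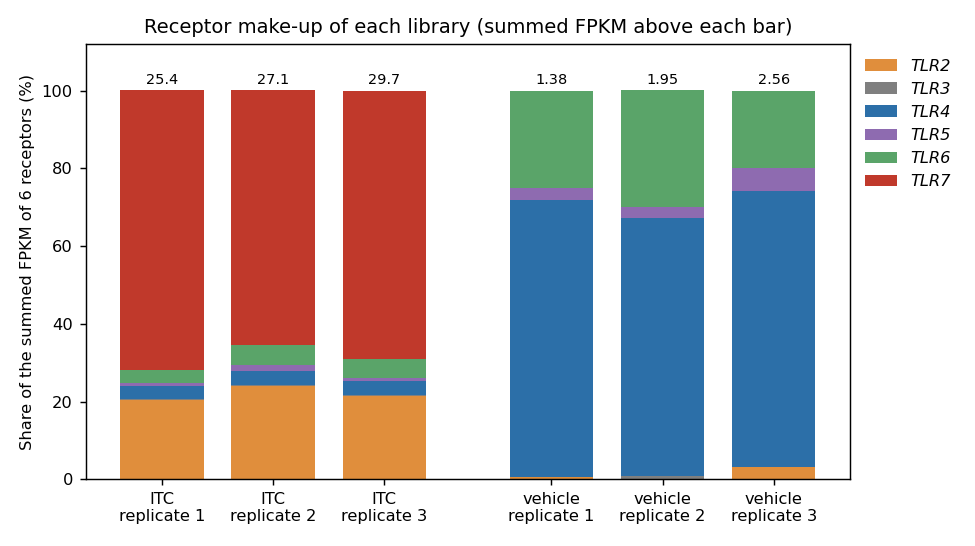
Share of the summed FPKM of 6 Toll-like receptors held by each receptor in 3 ITC libraries (left) and 3 vehicle libraries (right), with the summed FPKM above each bar. TLR7 and TLR2 fill most of each ITC bar, whose sums are 25.4 to 29.7, and TLR4 and TLR6 fill most of each vehicle bar, whose sums are 1.38 to 2.56.

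Downstream of the receptors, MYD88 (chromosome 3, 38138478 to 38143022) had 46.4, 35.5 and 28.2 CPM in ITC replicates 1, 2 and 3 and 14.1, 14.7 and 13.9 CPM in vehicle replicates 1, 2 and 3. The ITC libraries spread more widely than the vehicle libraries, and all lay above them. MYD88 rose by 1.37 ± 0.19, or 2.58-fold (edgeR adjusted p = 4.23e-05).

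The IRAK kinases differed from each other. IRAK2 (chromosome 3, 10164865 to 10243743), which sustains signaling from the MYD88 platform, had 91.5, 80.6 and 74.1 CPM in ITC replicates 1, 2 and 3 and 3.85, 4.93 and 3.34 CPM in vehicle replicates 1, 2 and 3. It rose by 4.36 ± 0.20, or 20.5-fold (edgeR adjusted p = 5.21e-10), and 1.4% of all tested genes were called with a rise of 16-fold or more. IRAK4 (chromosome 12, 43758944 to 43789543), the kinase that starts the cascade, had 19.2, 19.8 and 24.5 CPM in ITC replicates 1, 2 and 3 and 18, 18.9 and 22.8 CPM in vehicle replicates 1, 2 and 3. Its groups overlapped, and its log2 change was 0.09 ± 0.17, with a 95% interval of -0.25 to 0.43 (edgeR adjusted p = 0.719). The ratio of IRAK2 to IRAK4 per length was 4.89 to 7.69 in ITC libraries and 0.237 to 0.422 in vehicle libraries.

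The order of levels per length changed between the groups. In ITC it ran from IRAK2 (24.3 ± 3.03 FPKM, SD, n = 3) and TLR7 (18.8 ± 1.47) through MYD88 (9.51 ± 2.55), TLR2 (6.02 ± 0.715), UNC93B1 (5.92 ± 1.45) and IRAK4 (3.87 ± 0.47) to TLR6 (1.23 ± 0.332), TLR4 (0.964 ± 0.124), TLR5 (0.309 ± 0.0765) and TLR3 (0.0557 ± 0.0254). Neighbours in that order had separate ranges except TLR2 with UNC93B1 and TLR6 with TLR4. In vehicle it ran from UNC93B1 (4.81 ± 1.66 FPKM), MYD88 (3.65 ± 0.157) and IRAK4 (3.60 ± 0.386), whose neighbours overlap in range, through TLR4 (1.36 ± 0.42), which overlaps IRAK2 (1.19 ± 0.246), to TLR6 (0.481 ± 0.124) and TLR5 (0.0821 ± 0.0568). TLR5, TLR2, TLR3 and TLR7 were the lowest in vehicle, and each overlapped the next. Among all tested genes, 87.6% had a lower mean FPKM than IRAK2 in ITC and 26.2% in vehicle, and 83.7% had a lower one than TLR7 in ITC.

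Genes near the members were looked at for changes along the chromosome. Of 20 tested genes within 50 kb of a member, 3 rose, 4 fell and 13 were not called, a share near the 39.4% called over all tested genes. The only tested neighbour of TLR7, PRPS2, averaged 17.0 ± 1.09 CPM in ITC and 12.7 ± 1.14 CPM in vehicle and was not called (0.41 ± 0.17, edgeR adjusted p = 0.0661, and 0.0292 with a replicate block). Beside TLR2, neither RNF175 (-0.82 ± 0.35) nor TMEM131L (0.05 ± 0.19) was called. TATDN2, whose span begins 4280 bases from that of IRAK2, rose by 0.53 ± 0.16, and VHL, BRK1 and SEC13 near it were not called. OXSR1 near MYD88 rose by 0.60 ± 0.14 and FAM114A1 near TLR6 rose by 1.00 ± 0.16. Near UNC93B1 the aldehyde dehydrogenase gene ALDH3B1 fell by 1.59 ± 0.31 and NDUFS8 fell by 0.42 ± 0.15, and near IRAK4 TMEM117 fell by 1.88 ± 0.28 and TWF1 fell by 0.58 ± 0.19. PUS7L, 127 bases from IRAK4, had a change of -0.43 ± 0.22 and was not called. FAM114A1, ALDH3B1 and TMEM117 stayed called in all 14 alternatives, and the smaller changes did not. TATDN2 lost its call without ITC replicate 2 (adjusted p = 0.0731), without vehicle replicate 2 (0.0908) or 3 (0.101), with upper quartile scaling (0.0672) and with library size only (0.158). TWF1 lost its call without ITC replicate 1 (0.103) or 2 (0.0871) and without vehicle replicate 3 (0.0551). NDUFS8 lost its call without ITC replicate 2 (0.173) or 3 (0.185), without vehicle replicate 2 (0.118) and with no filter (0.0627), and OXSR1 with library size only (0.0536). Beside TLR2, RNF175 was called lower under 5 alternatives, at -1.31 without ITC replicate 3 (0.00891), its largest change. PUS7L was called lower without that library (-0.63, 0.0269), with library size only (0.0333) and with a replicate block (0.00929). ACAA1, 1236 bases from MYD88, was not called (-0.36 ± 0.14, adjusted p = 0.0571) but was called lower under 6 of the 14 alternatives, among them leaving out ITC replicate 1 (0.0495) and vehicle replicate 3 (0.0415).

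**Figure D3:**
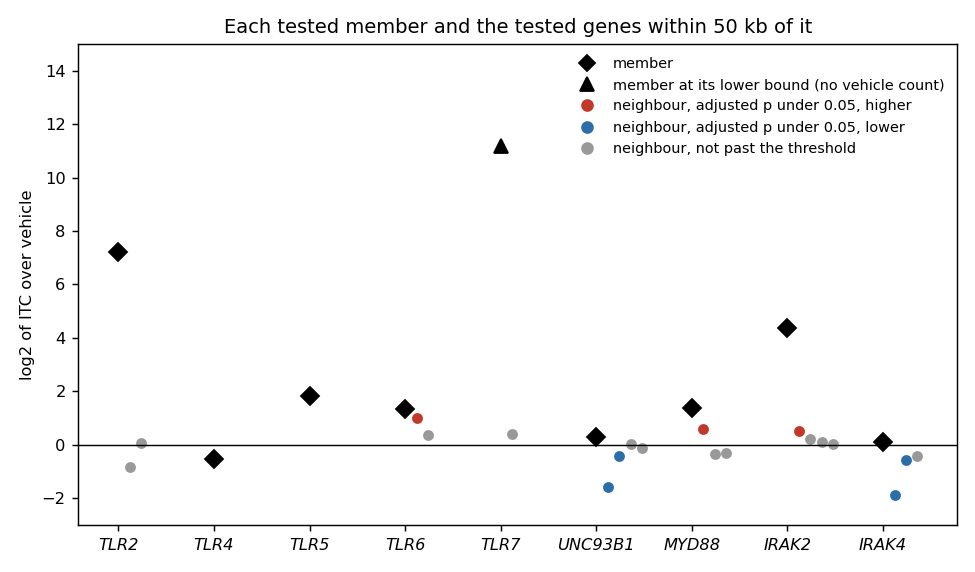
Log2 of ITC over vehicle for each tested member (black diamonds, with TLR7 as a triangle at its lower bound of 11.18) and for the tested genes within 50 kb of it (circles, coloured by call). The neighbours lie between -1.88 and 1.00, and no tested gene lies within 50 kb of TLR4 or TLR5.

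The genes with the most similar pattern were found by the Euclidean distance between log2 CPM values centred on each gene's mean, over the 6 libraries. Those nearest to TLR7 were the chemokine CXCL5 (distance 1.19) and TNFAIP2 (1.45), and those nearest to TLR2 were the cytokine IL34 (0.66) and the BMP antagonist GREM1 (1.11). IRAK2 was nearest to SAMD5 (0.25) and the hexose transporter SLC2A6 (0.33), and MYD88 to GMDS (0.18) and TRAF4 (0.20). TLR6 was nearest to PLCB4 (0.36) and MYOZ3 (0.44), and TLR5 to AKAP2 (0.53) and FAM111A (0.54). In log2 of ITC over vehicle, IL34 changed by 6.69 ± 0.47, CXCL5 by 10.34 ± 0.33 and SLC2A6 by 4.24 ± 0.18.

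Around the members, 44 other genes of the pathway were listed by role, of which 40 had a row and 30 were tested. Of the tested genes 13 rose and 2 fell, and 15 were not called. Their median log2 change was 0.29, against -0.01 over all tested genes, of which 20.4% were called higher and 19.0% lower. TLR8, LY86, TICAM2 and TASL were not analysed here. Among the adaptors, TICAM1, the partner of TLR3 and TLR4, had 194, 161 and 122 counts in ITC replicates 1, 2 and 3 and 33, 28 and 43 counts in vehicle replicates 1, 2 and 3. It rose by 2.69 ± 0.27 (edgeR adjusted p = 1.72e-06), whereas the bridging adaptor TIRAP (-0.04 ± 0.22) and SARM1 (0.30 ± 0.21) were not called. Both other IRAK genes rose, IRAK1 by 1.04 ± 0.15 to 81.8 ± 11.3 CPM in ITC against 39.8 ± 0.589 CPM in vehicle, and IRAK3, an inhibitory member mostly known from macrophages, by 1.79 ± 0.41 to 2.39 ± 0.657 CPM against 0.685 ± 0.117 CPM.

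**Figure D4:**
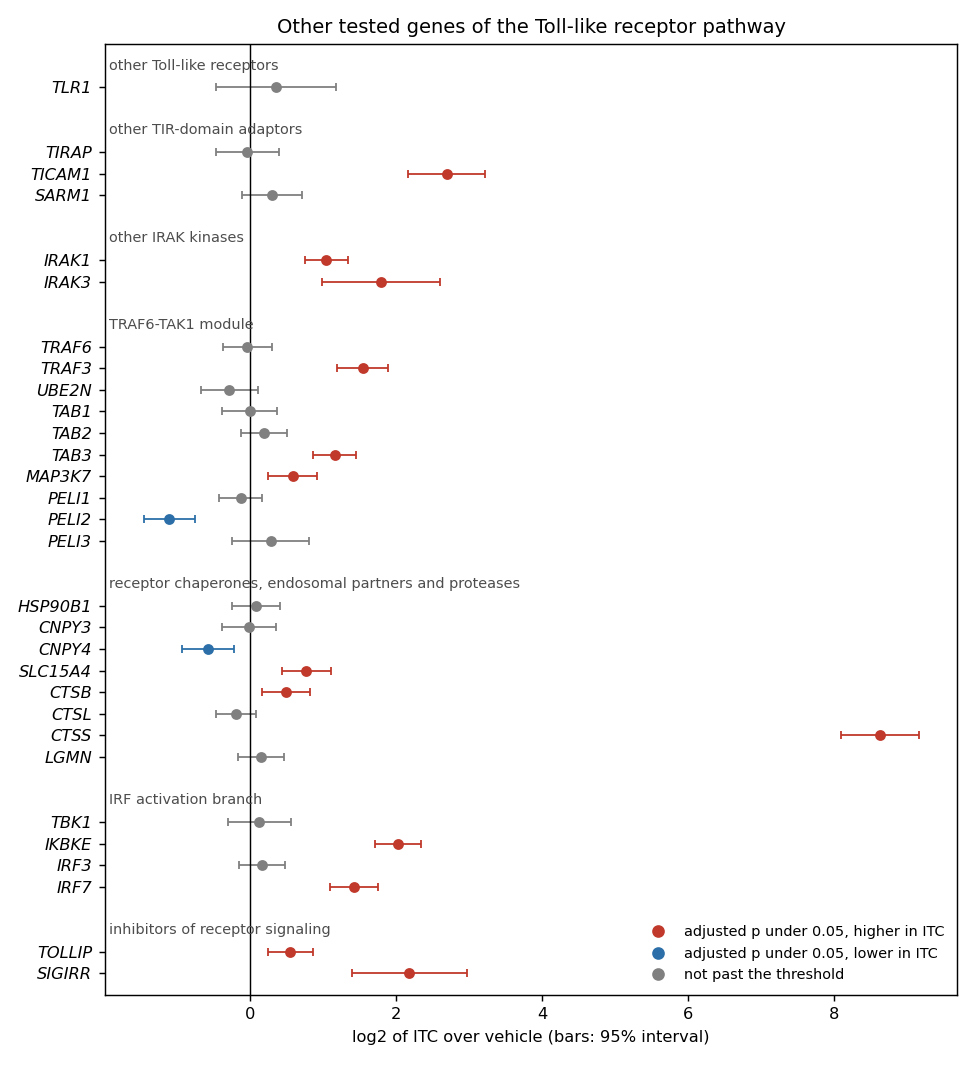
Log2 of ITC over vehicle with 95% intervals for 30 tested genes of the pathway outside the 10 members, grouped by role and coloured by call. CTSS stands alone at 8.63, the others lie between PELI2 (-1.11) and TICAM1 (2.69), and the grey points did not pass the threshold.

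In the ubiquitin ligase and TAK1 kinase module, 3 of 10 tested genes rose, 1 fell and 6 were not called. TRAF3 rose by 1.54 ± 0.18 to 151 ± 18.7 CPM in ITC against 51.7 ± 10.6 CPM in vehicle, and TAB3 rose by 1.16 ± 0.15. TRAF6, the ligase that acts on the IRAK platform, was not called (-0.04 ± 0.17), and neither were UBE2N (-0.29 ± 0.20) and TAB2 (0.19 ± 0.16). MAP3K7, the gene of TAK1, rose by 0.58 ± 0.17 and lost its call with upper quartile scaling (adjusted p = 0.0615), with library size only (0.125), without ITC replicate 2 (0.0541) or 3 (0.0647) and without vehicle replicate 2 (0.118). PELI2, an IRAK-binding ubiquitin ligase, fell by 1.11 ± 0.18 to 10.6 ± 2.0 CPM in ITC against 22.9 ± 0.954 CPM in vehicle.

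Among chaperones, endosomal partners and proteases, 3 of 8 tested genes rose, 1 fell and 4 were not called. CTSS, a lysosomal cysteine protease that can process endosomal receptors, had 1411, 1877 and 1585 counts in ITC replicates 1, 2 and 3 and 2, 6 and 9 counts in vehicle replicates 1, 2 and 3. It rose by 8.63 ± 0.27 to 94.5 ± 9.33 CPM in ITC against 0.229 ± 0.119 CPM in vehicle (edgeR adjusted p = 2.06e-11). SLC15A4, an endosomal transporter required for TLR7 signaling in immune cells, rose by 0.77 ± 0.17. CTSB rose by 0.49 ± 0.17 and lost its call without ITC replicate 1 (adjusted p = 0.0812) or 2 (0.0633), without vehicle replicate 2 (0.152) or 3 (0.101), with upper quartile scaling (0.0905), with library size only (0.194) and with no filter (0.0514). CNPY4 fell by 0.58 ± 0.18 and lost its call without ITC replicate 1 (adjusted p = 0.0649) or 2 (0.104). The abundant receptor chaperone HSP90B1, at 968 ± 138 CPM in ITC and 916 ± 138 CPM in vehicle, and its cofactor CNPY3 (-0.02 ± 0.19) were not called, and neither was the protease LGMN (0.15 ± 0.16).

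In the branch that activates interferon regulatory factors, 2 of 4 tested genes rose and 2 were not called. The kinase IKBKE rose by 2.02 ± 0.16 to 56.6 ± 6.23 CPM in ITC against 14 ± 1.31 CPM in vehicle, and the factor IRF7 rose by 1.42 ± 0.17 to 31.8 ± 5.82 CPM against 11.9 ± 0.0627 CPM. Their counterparts TBK1 (0.12 ± 0.22) and IRF3 (0.16 ± 0.16) were not called. Among inhibitors of receptor signaling both tested genes rose. SIGIRR, a TIR-domain receptor that restrains signaling, rose by 2.18 ± 0.40 to 4.47 ± 0.978 CPM in ITC against 0.971 ± 0.480 CPM in vehicle. TOLLIP rose by 0.55 ± 0.16 and lost its call with library size only (adjusted p = 0.108), without vehicle replicate 2 (0.0619) and without vehicle replicate 3 (0.0674).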

How the data were processed

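The authors deposited 1 table with raw counts per gene, FPKM, normalized signal, log2 fold changes and p-values with adjusted p-values. GRCh38 and DESeq2 are named in the submitters' processing notes, whereas aligner, counter and strand setting were not given in the sources used here. Each deposited signal value is the count divided by 1 factor per library, tested on the values, and the deposited log2 fold changes are of vehicle over ITC per the file headers. The deposited FPKM use the listed gene length and a library size of 84.3% to 108% of the total count.

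Counts were tested with edgeR 4.0.16 (filterByExpr, TMM, quasi-likelihood test without covariates, Benjamini-Hochberg over 16756 genes, threshold 0.05) and the pipeline was tested on simulated data. SE is the log2 change divided by the square root of F, and 95% intervals of it are normal ones. Floors and counting intervals (95%, exact binomial) cover counting error only. Every pair of replicate libraries was further apart than sampling noise (chi-square of at least 10.4 per degree of freedom), and p-values measure only the spread between these cultures.

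The members, the pathway and marker lists and the motifs were chosen with earlier results of these data known. Named pathway genes are all called genes averaging 1 CPM or more and the 5 most abundant uncalled ones; TIRAP, SARM1, TRAF6, TBK1, IRF3 and the untested genes were added after their values were seen; neighbours lie within 50 kb; nearest patterns are 2 protein-coding genes of at least 1 CPM per called member, on log2 CPM (prior count 2). Exon overlaps and 100-base windows come from GENCODE 29. Alternatives were other scalings and filters, DESeq2 1.42.0, limma-voom (3.58.1), a replicate block and leaving out each library. There were 0 columns of unmapped samples.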

Additional observations from a re-analysis of the deposited data

How the results depend on the processing

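The 6 members called higher in ITC stayed called and higher in all 14 alternatives. The count of members called lower moved between 0 and 1 through TLR4: it was 1 with upper quartile scaling (-0.67), library size only (-0.75), no filter on low counts (-0.53) and the replicate block (-0.48), and leaving out 1 library gave -0.73 to -0.28 with a count of 0 to 1. The uncalled change of IRAK4 turned negative with upper quartile scaling (-0.05) and library size only (-0.14) and ranged from -0.01 to 0.17 without 1 library, and that of UNC93B1 ranged from -0.0047 to 0.46. The cause was not tested. Other pathway genes called lower numbered 1 to 2 without 1 library, and of the 20 neighbours 1 to 4 were called higher and 2 to 8 lower over all alternatives. Upper quartile scaling and library size only moved the median log2 change of all genes to -0.16 and -0.24, from -0.01, and the share of calls that were higher to 39.6% and 32.2%, from 51.9%. The median was also lower with DESeq2 (-0.19) and with no filter on low counts (-0.21). In those fits 52.8% and 47.8% of calls were higher. In CPM in place of FPKM, which is not per length, 4 of 10 members kept their place in the order of levels in ITC. With the replicate number as a block 8416 genes were called, against 6599 without it; the labels do not say that the number marks the capsule batch, and deviations of same-numbered libraries correlated at 0.268, 0.00733 and 0.384, so that not every library went best with its own number. Counts limit TLR3, TLR2 in vehicle and TLR5.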

Other observations

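Of the co-receptors that present ligands to TLR2 and TLR4, none reached the filter on low counts with all 6 libraries. LY96, which binds lipopolysaccharide with TLR4, had 13, 12 and 9 counts in ITC replicates 1, 2 and 3 and 2, 2 and 10 counts in vehicle replicates 1, 2 and 3, a ratio of 3.45 with a 95% exact counting interval of 1.80 to 6.95. CD14 had 13 counts over the ITC group and 14 over the vehicle group, and the plasma carrier LBP had 13 counts in ITC and 2 in vehicle. Without a filter, edgeR gave adjusted p-values of 0.0998 for LY96, 0.828 for CD14 and 0.246 for LBP. LY96 passed the filter in 4 of the fits without 1 library and was called higher in 1 of them, without vehicle replicate 3 (2.62 ± 0.87, adjusted p = 0.0227), against 1.86 ± 0.84 with all libraries and no filter.

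The remaining receptors were near the limit of detection. TLR10, in the same cluster as TLR1 and TLR6, had 0 counts over the ITC group and 7 over the vehicle group, and TLR9, the receptor for unmethylated DNA, had 1 count in each group. SLC15A3, an endosomal transporter related to SLC15A4, had 27, 14 and 2 counts in ITC replicates 1, 2 and 3 and 0, 2 and 1 counts in vehicle replicates 1, 2 and 3. Its ratio was 20.3, with an interval of 6.51 to 102, and edgeR without a filter gave an adjusted p of 0.000294.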
